A study of Mus musculus with 12 samples.

Results

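The Cyp2 genes encode the largest family of cytochromes P450 in the mouse, and the members described here are those outside the Cyp2b subfamily. With earlier results of these data known, the rule for choosing them was set by gene name. It took every gene whose symbol has the form Cyp2 with a letter and a number, leaving out Cyp2b. This gave 31 genes of the 18193 that a probe set of the array names alone, read by 36 probe sets. A further probe set, which names both Cyp2a5 and Cyp2a4, is described apart. Of the 43 protein-coding genes of this kind that RefSeq lists for the mouse, 30 were read in this way. Cyp2d13 among the 31 is a transcribed pseudogene there. Besides Cyp2a4 and Cyp2a5, 11 genes had no probe set named for them alone in the annotation table (Cyp2a22, Cyp2ab1, Cyp2c40, Cyp2c66, Cyp2c67, Cyp2c69, Cyp2d11, Cyp2j8, Cyp2j12, Cyp2t4 and Cyp2w1) and were not read here.

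Liver RNA was measured on 12 Affymetrix arrays of the whole mouse genome, 4 in each of 3 groups of male C57BL/6 mice that were adult when exposure began. The SHS4m+1m recovery mice (replicates 70 to 73) breathed secondhand smoke (SHS), a mixture of sidestream and mainstream cigarette smoke, for 4 months and then clean air for 1 month. The SHS4m mice (replicates 66 to 69) were taken at the end of the 4 months of SHS. The control mice (replicates 1 to 4) were sham-treated in filtered air and carried no other treatment. Sham mice were kept both with and without the recovery time, and the 4 control arrays are not labelled by it. An age gap of 1 month between controls and an SHS group therefore cannot be told apart from SHS. The labels do not say that each array is a separate mouse, so p-values measure the spread between these arrays. The comparisons ask which Cyp2 transcripts differed at the end of SHS, which still differed after clean air, and which moved between those times. Signals are scanner intensities on a linear scale. Values below 32 were raised to this floor before log2 was taken, so a transcript near it can show only part of a change. A difference was called at a Benjamini-Hochberg adjusted p under 0.05 from limma over all 45037 probe sets, and each gene was read by its brightest probe set. A signal depends on its probes, so levels were compared between arrays and not between genes.

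Cytochromes P450 are heme enzymes of the endoplasmic reticulum that insert an oxygen atom into fats, steroids, drugs and smoke constituents, using electrons passed on by P450 reductase and cytochrome b5. In hepatocytes many Cyp2 genes are switched on by the xenobiotic receptors CAR (Nr1i3) and PXR (Nr1i2), which bind DNA with the retinoid X receptor. The Cyp2c and Cyp2j enzymes turn arachidonic acid into epoxides and hydroxy acids, Cyp2d and Cyp2a enzymes act on drugs and steroids, and the mouse Cyp2a5 enzyme oxidises nicotine and coumarin. Cyp2e1 acts on ethanol and other small molecules. The livers carried the marks of hepatocytes: the summed signal of the 7 hepatocyte markers read, of 9 listed, was 261418 to 408970 in SHS4m+1m recovery mice, 297082 to 324074 in SHS4m mice and 304793 to 356539 in controls, and none of the 7 was called by limma in any comparison (3, 1 and 1 had an unadjusted p under 0.05 for SHS4m against control, recovery against control and recovery against SHS4m). In whole liver, fewer cells of a type and less RNA per cell cannot be told apart.

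Upstream sequences are shown for the pair of genes that shares a probe set and for a pair of Cyp2c genes, Cyp2c37 and Cyp2c50. Among the genes read, Cyp2c54 lies between Cyp2c37 and Cyp2c50 on the chromosome. The values of each pair are given further on. The sequences are the 250 bases before the start, 5′ to 3′, from RefSeq (GRCm38.p6), all on the plus strand. They are Cyp2a5 at chr7:26835089-26835338, Cyp2a4 at chr7:26306942-26307191, Cyp2c37 at chr19:39992174-39992423 and Cyp2c50 at chr19:40089429-40089678. In the Cyp2a pair capitals mark the match to the D-box, TTATGNAA, the DNA motif of the clock-driven factors Dbp, Tef and Hlf, which is read here on the minus strand. In the Cyp2c pair capitals mark the bases that were not matched when both windows were aligned.
Cyp2a5: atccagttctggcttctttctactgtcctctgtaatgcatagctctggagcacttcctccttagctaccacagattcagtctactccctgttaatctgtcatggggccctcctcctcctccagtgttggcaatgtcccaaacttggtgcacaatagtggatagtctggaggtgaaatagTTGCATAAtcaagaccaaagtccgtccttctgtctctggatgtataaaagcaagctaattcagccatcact
Cyp2a4: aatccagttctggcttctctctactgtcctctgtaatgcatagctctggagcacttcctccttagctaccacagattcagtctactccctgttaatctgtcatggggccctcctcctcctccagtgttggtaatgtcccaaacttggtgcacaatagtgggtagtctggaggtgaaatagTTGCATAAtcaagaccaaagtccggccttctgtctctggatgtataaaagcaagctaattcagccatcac
Cyp2c37: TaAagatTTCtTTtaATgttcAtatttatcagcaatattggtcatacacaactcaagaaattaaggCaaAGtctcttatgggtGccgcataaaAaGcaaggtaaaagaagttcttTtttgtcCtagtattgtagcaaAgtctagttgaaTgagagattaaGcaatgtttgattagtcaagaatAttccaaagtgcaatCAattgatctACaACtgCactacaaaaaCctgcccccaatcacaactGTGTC
Cyp2c50: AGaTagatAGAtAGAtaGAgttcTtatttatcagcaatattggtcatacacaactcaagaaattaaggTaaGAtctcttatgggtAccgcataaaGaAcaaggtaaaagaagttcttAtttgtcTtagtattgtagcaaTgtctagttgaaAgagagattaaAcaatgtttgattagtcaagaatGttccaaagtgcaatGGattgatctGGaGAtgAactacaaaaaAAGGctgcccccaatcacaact

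The Cyp2a5 and Cyp2a4 windows were identical in 245 of 251 aligned positions (97.6%), and the Cyp2c37 and Cyp2c50 windows in 215 of 255 (84.3%). The table held windows of 25 of the 33 genes looked for, 27 windows in all. The D-box was found, on either strand, in 2 of the 27, those of Cyp2a5 and Cyp2a4, where its first letter lay 71 and 70 bases before the start, and in 3.07% of all 32851 windows. The TATA box TATAAA was in 14 of the 27 windows and in 12.4% of all, and the Hnf4a site CAAAGTCCA in 3 (Cyp2c65, Cyp2c68 and Cyp2c70) and in 0.384% of all. GCGTG, the core bound by the Ah receptor, was in 4 windows, those of Cyp2c68, Cyp2j9 and Cyp2j13 (28.2% of all), TGTTCT, a piece of the glucocorticoid receptor site, in 6 (16.1% of all), and the Nrf2 core TGACNNNGC in none (10.2% of all). TTGCGCAA, which C/EBP factors bind, was in none of the 27 windows (0.164% of all). Every motif was searched on both strands, and a match is a description of the letters only.

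At the end of exposure, SHS4m mice had higher signals than controls for 6 Cyp2 genes (Cyp2c55, Cyp2c39, Cyp2c37, Cyp2c54, Cyp2d22 and Cyp2g1) and lower signals for 2 (Cyp2u1 and Cyp2j5). These 8 called genes are 25.8% of the 31, against 7.47% of all 18193 genes (3.73% higher and 3.74% lower). Of the 10980 genes above the floor on all arrays, 11.6% were called in this comparison. The share was 4.01% between recovery mice and controls and 5.69% between recovery and SHS4m mice. All 8 were among the 26 members above the floor on every array. Of the 6 Cyp2 probe sets that are not the brightest of 1 gene, 4 were called here (2 higher and 2 lower), against 5.4% of all probe sets, 3 between recovery mice and controls (2.07% of all) and 1 between recovery and SHS4m mice (2.54%). After 1 month in clean air 1 of the 31 genes was called against controls, Cyp2g1, which was higher. This is 3.23%, with 2.52% of all genes called (1.37% higher and 1.14% lower). A brighter probe set that only the study names Cyp2u1 was also called there and is described further on. Between SHS4m+1m recovery and SHS4m mice 3 were called (9.68%, with 3.68% of all genes called): Cyp2c55 and Cyp2c37 were lower after recovery and Cyp2u1 was higher (1.68% of all genes lower, 2.01% higher). By an unadjusted p under 0.05 with at least a 2-fold change, 4, 1 and 3 genes passed in these comparisons, against 2.81%, 1.21% and 1.93% of all genes. Cyp2c37, Cyp2c54, Cyp2d22 and Cyp2j5 changed by less than 2-fold. The median log2 difference over the 31 genes was 0.02 for SHS4m against control, -0.05 for recovery against control and -0.08 for recovery against SHS4m, beside -0.01, 0 and 0 over all genes. The family median thus lay close to that of all genes, and the called members moved both ways.

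**Figure D1:**
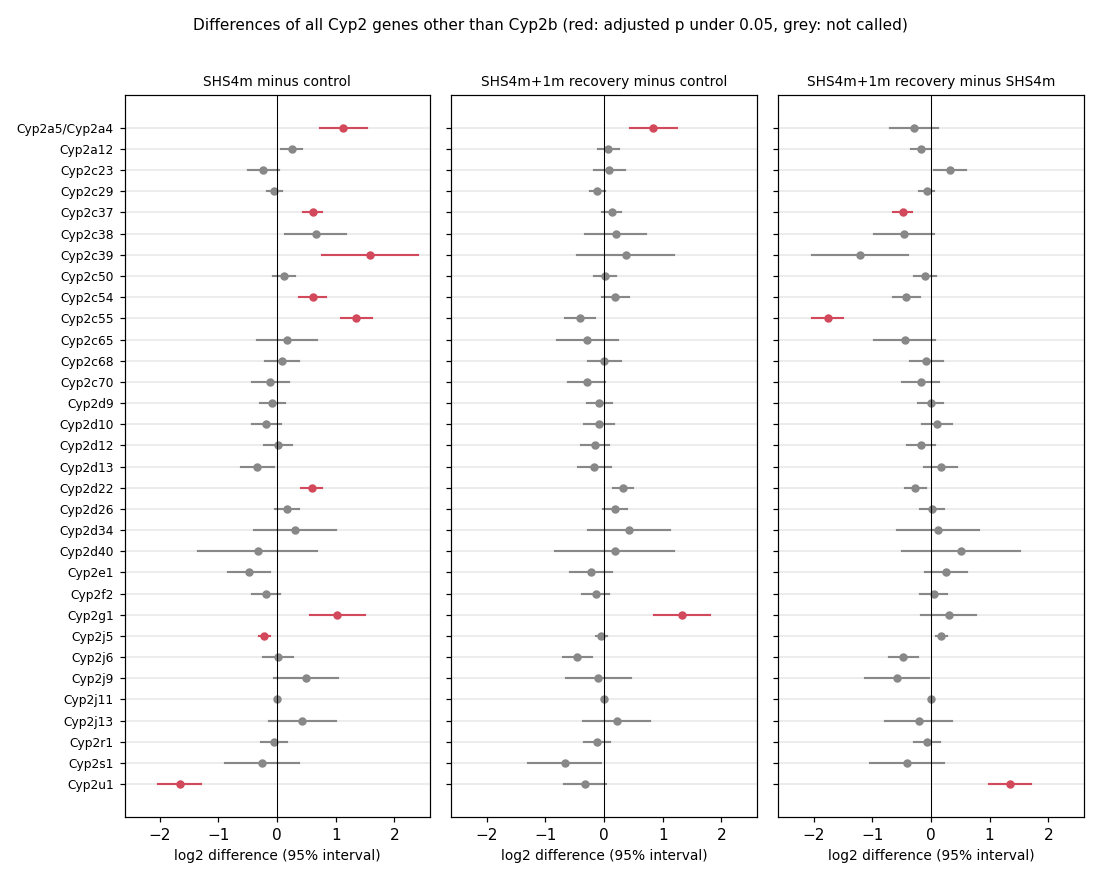
Log2 difference of each Cyp2 gene other than Cyp2b and of the probe set of Cyp2a5 and Cyp2a4 (rows) for SHS4m minus control, SHS4m+1m recovery minus control and SHS4m+1m recovery minus SHS4m (panels, x axis in log2 units). Points are limma estimates over 4 arrays per group with 95% intervals and red marks an adjusted p under 0.05: the points lie between -1.66 and 1.58 at the end of exposure, and most grey points lie near 0.

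The Cyp2c genes held 4 of the 6 higher calls. They encode enzymes that oxidise arachidonic and linoleic acid, and lie on mouse chromosome 19. Cyp2c55 makes mainly 19-hydroxyeicosatetraenoic acid from arachidonic acid. Its signal was 739, 668, 529 and 650 in SHS4m+1m recovery mice, 1794, 2206, 2391 and 2370 in SHS4m mice, and 875, 789, 827 and 925 in controls. All SHS4m arrays were above all others, and all recovery arrays were below all control arrays. Cyp2c55 was 2.55-fold higher in SHS4m mice than in controls (log2 1.35, standard error 0.117, adjusted p = 0.000496 from limma). In recovery mice its log2 signal was 1.76 below that in SHS4m mice (log2 -1.76, adjusted p = 0.000394 from limma). Against controls the recovery difference was -0.41 (95% interval -0.67 to -0.15) and was not called (adjusted p = 0.13). Both calls held under every alternative of the processing and without any 1 array.

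Cyp2c37 and Cyp2c54 oxidise arachidonic acid and are abundant in liver. The signal of Cyp2c37 was 22097, 22482, 21302 and 19616 in SHS4m+1m recovery mice, 31970, 28831, 30360 and 28131 in SHS4m mice, and 17824, 18530, 19830 and 22118 in controls. The SHS4m arrays did not overlap with either other group, while recovery and control arrays overlapped. The log2 signal of Cyp2c37 rose by 0.61 in SHS4m mice over controls (standard error 0.0726, 1.53-fold, adjusted p = 0.00205 from limma) and was lower in recovery mice than in SHS4m mice (log2 -0.48, adjusted p = 0.0101). The second of these calls was lost with log2(value + 16) in place of the floor (adjusted p = 0.0826).
The signal of Cyp2c54 was 22530, 21516, 28182 and 19870 in SHS4m+1m recovery mice, 31453, 30871, 30204 and 29885 in SHS4m mice, and 20764, 20608, 17392 and 21620 in controls. Every SHS4m array was above every other array, and the highest recovery array, of replicate 72, was nearest to them. Cyp2c54 rose 1.53-fold in SHS4m mice over controls (log2 0.61, standard error 0.103, adjusted p = 0.00963 from limma). The difference of recovery from SHS4m mice was -0.42 and was not called (adjusted p = 0.0702), but it was called without recovery replicate 72 (log2 -0.52, adjusted p = 0.0159), with quantile normalization and with array weights. The array of replicate 72 had a 3' to 5' signal ratio of 8.82 for actin, which rises as RNA degrades, against 3.24 to 4.64 on the other arrays.

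Cyp2c39, which can hydroxylate retinoic acid, had the largest rise among the called members at the end of exposure, on a dim probe set. Its signal was 84.3, 139, 98.7 and 140 in SHS4m+1m recovery mice, 447, 207, 249 and 203 in SHS4m mice, and 143, 46.8, 98.9 and 88.7 in controls. All SHS4m arrays were above all arrays of the other groups, which overlapped. Cyp2c39 was 2.99-fold higher in SHS4m mice than in controls (log2 1.58, standard error 0.367, adjusted p = 0.0364 from limma). Leaving out control replicate 2, 3 or 4, any SHS4m replicate, or recovery replicate 71 or 72 ended this call (adjusted p up to 0.0832), as did a fit of only the 8 arrays of the comparison (0.0906). Recovery mice had a log2 difference of -1.21 from SHS4m mice (adjusted p = 0.141).

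Of the other 7 Cyp2c genes read, none was called by limma in any comparison, and 1, 0 and 1 had an unadjusted p under 0.05 for SHS4m against control, recovery against control and recovery against SHS4m. Cyp2c38, an arachidonic acid epoxygenase next to Cyp2c39, had signals of 1350 to 2055 (median 1885) in SHS4m+1m recovery mice, 2161 to 3128 (median 2290) in SHS4m mice and 994 to 2086 (median 1659) in controls. Its SHS4m arrays were above all others, with a log2 difference from controls of 0.66 (95% interval 0.14 to 1.18, adjusted p = 0.155 from limma). Cyp2c50, whose window is shown above with that of Cyp2c37, had mean log2 signals of 15.36 in SHS4m+1m recovery mice, 15.46 in SHS4m mice and 15.34 in controls. Its difference at the end of exposure was 0.12 (95% interval -0.07 to 0.31, adjusted p = 0.557), and it was called with quantile normalization. Whether Cyp2c50 differed from Cyp2c37 in its response was not tested, nor was cross-hybridisation between such similar genes. Cyp2c29, a phenobarbital-inducible epoxygenase, had mean log2 signals of 15.48 in SHS4m+1m recovery mice, 15.55 in SHS4m mice and 15.60 in controls, and its difference at the end of exposure lay within -0.18 and 0.08 (95% interval). Cyp2c70, which makes the muricholic bile acids of the mouse, averaged 14.38 in SHS4m+1m recovery mice, 14.56 in SHS4m mice and 14.67 in controls. The differences of Cyp2c23 and Cyp2c68 at the end of exposure were -0.23 and 0.08 (adjusted p = 0.363 and 0.844), and Cyp2c65 was at or below the floor on 7 of 12 arrays. Along the chromosome the 4 called genes stood at positions 1, 4, 7 and 8 of the 11 read.

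**Figure D2:**
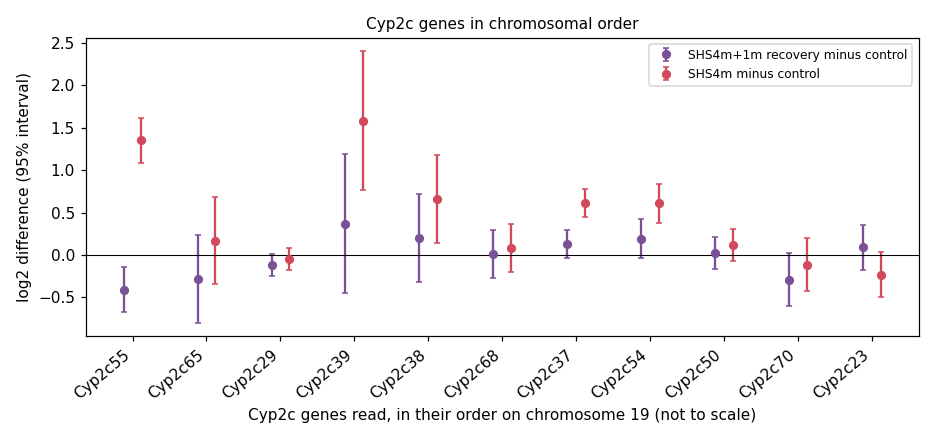
Log2 difference from controls (y axis, 95% intervals, 4 arrays per group) of the 11 Cyp2c genes read, placed on the x axis in their order on chromosome 19 and not to scale, for SHS4m+1m recovery and SHS4m mice. Cyp2c55, Cyp2c39, Cyp2c37 and Cyp2c54 are called in SHS4m mice (1.35, 1.58, 0.61 and 0.61), and the genes between them include Cyp2c29 at -0.05 and Cyp2c68 at 0.08.

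Among the Cyp2d genes, which act on drugs and steroids, 1 of the 8 read was called. This was Cyp2d22, often regarded as the mouse counterpart of human CYP2D6. Its signal was 5967, 5030, 6310 and 5669 in SHS4m+1m recovery mice, 6524, 6867, 6981 and 7243 in SHS4m mice, and 4994, 4806, 4103 and 4463 in controls. The 3 groups did not overlap, with recovery arrays in the middle. Cyp2d22 rose 1.51-fold in SHS4m mice over controls (log2 0.59, standard error 0.0788, adjusted p = 0.00339 from limma), and recovery mice differed from controls by 0.32 (adjusted p = 0.0781) and from SHS4m mice by -0.27 (adjusted p = 0.128). A second probe set of Cyp2d22 (1419040_at) read 4643, 3941, 4788 and 4419 in SHS4m+1m recovery mice, 7134, 6815, 6842 and 6640 in SHS4m mice, and 4135, 4034, 3657 and 3649 in controls. It was called both at the end of exposure (log2 0.83, adjusted p = 0.000325) and between recovery and SHS4m mice (log2 -0.63, adjusted p = 0.00221). The probe sets thus gave the same directions, and only the second called the lower level after recovery.
Cyp2d9, a testosterone hydroxylase of male liver, averaged a log2 signal of 14.88 in SHS4m+1m recovery mice, 14.88 in SHS4m mice and 14.96 in controls. The log2 differences of Cyp2d10, Cyp2d12, Cyp2d13 and Cyp2d26 at the end of exposure were -0.19, 0.02, -0.34 and 0.17 (adjusted p from limma 0.184 to 1). For the pseudogene Cyp2d13 a second, dimmer probe set (1431803_at) was called in both SHS groups. It read 658, 664, 647 and 532 in SHS4m+1m recovery mice, 670, 660, 605 and 701 in SHS4m mice, and 949, 1137, 852 and 794 in controls, so that all arrays of both SHS groups were below all control arrays. The differences from controls were -0.57 in recovery mice and -0.49 in SHS4m mice (adjusted p = 0.0375 and 0.0362), while the brightest probe set gave -0.17 and -0.34 (adjusted p = 0.675 and 0.184). Both comparisons share the 4 control arrays. Cyp2d34 and Cyp2d40 were at the floor on 3 and 1 of 12 arrays.

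Cyp2g1, known from the olfactory mucosa, where it oxidises odorants and steroids, was the member whose brightest probe set was called in both SHS groups against controls. Its signal was 1031, 616, 886 and 761 in SHS4m+1m recovery mice, 640, 679, 770 and 554 in SHS4m mice, and 391, 420, 254 and 258 in controls. Both SHS groups were above all control arrays and overlapped with each other. Both comparisons share the 4 control arrays, of which replicates 3 and 4 were lowest. Cyp2g1 was 2.51-fold higher in recovery mice than in controls (log2 1.33, standard error 0.212, adjusted p = 0.0167 from limma) and 2.04-fold higher in SHS4m mice than in controls (log2 1.03, standard error 0.212, adjusted p = 0.0228). Recovery and SHS4m mice differed by 0.30 (95% interval -0.17 to 0.78, adjusted p = 0.65). The call at the end of exposure was lost without control replicate 3 or 4 or SHS4m replicate 66, 67 or 68 (adjusted p up to 0.0636), and the call after recovery was lost when only the 8 arrays of that comparison were fitted (0.0759). The study listed Cyp2c55, Cyp2g1, Cyp2u1 and the probe set of Cyp2a5 and Cyp2a4 from these same arrays, so these results are not independent evidence of a change.

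Cyp2u1 moved the other way. It hydroxylates long-chain fatty acids at their end and is expressed in many organs, brain and thymus among them. Its signal was 566, 526, 697 and 420 in SHS4m+1m recovery mice, 173, 246, 244 and 202 in SHS4m mice, and 611, 644, 734 and 730 in controls. All SHS4m arrays were below all others, and recovery and control arrays overlapped. Cyp2u1 fell by 1.66 on the log2 scale in SHS4m mice against controls (log2 -1.66, standard error 0.161, adjusted p = 0.00077 from limma), so that controls were 3.17-fold higher. Recovery mice were 2.54-fold above SHS4m mice (log2 1.34, adjusted p = 0.00435) and differed from controls by -0.32 (95% interval -0.68 to 0.04, adjusted p = 0.45). Both calls held under every alternative and without any 1 array. A dimmer probe set of the gene (1444960_at) read 71.9, 116, 158 and 139 in SHS4m+1m recovery mice, 104, 115, 114 and 110 in SHS4m mice, and 124, 170, 241 and 189 in controls. It was not called in any comparison, with differences of -0.67 at the end of exposure (adjusted p = 0.194) and 0.07 between recovery and SHS4m mice (adjusted p = 1). Another probe set is left unnamed in the annotation table and is named Cyp2u1 in the lists of the study, which chose it on these arrays, and it was looked up after the other results were known. It read 4294, 3787, 4805 and 3809 in SHS4m+1m recovery mice, 1723, 1931, 2182 and 1939 in SHS4m mice, and 5294, 5959, 7435 and 6276 in controls. No group overlapped with another on it, with SHS4m arrays lowest and controls highest. It was called in all 3 comparisons by limma, at -0.58 for recovery mice against controls (adjusted p = 0.0398), -1.68 for SHS4m mice against controls (adjusted p = 0.000259) and 1.10 for recovery against SHS4m mice (adjusted p = 0.00228). The brightest named probe set and this one thus differ in the call for recovery mice against controls. The unnamed one was the brighter, with a mean log2 signal in controls of 12.6 against 9.405. Had the annotation table named it, Cyp2u1 would have been read from it and called lower after recovery.

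Of the 5 Cyp2j genes read 1 was called. Cyp2j5, an arachidonic acid epoxygenase of kidney and liver, had signals of 13193, 13525, 14182 and 13114 in SHS4m+1m recovery mice, 12498, 11448, 12550 and 11452 in SHS4m mice, and 14324, 14030, 13310 and 14101 in controls. All SHS4m arrays were below all others by a small margin. Cyp2j5 fell by 0.22 on the log2 scale in SHS4m mice against controls (log2 -0.22, standard error 0.0419, adjusted p = 0.0167 from limma). This call was lost with arrays centred on their median (log2 -0.14, adjusted p = 0.452), with log2(value + 16) (0.313) and with a filter on dim probe sets (0.0952). A second, dimmer probe set of Cyp2j5 (1417532_at) read 3440, 2645, 2477 and 3116 in SHS4m+1m recovery mice, 2675, 2494, 2800 and 2281 in SHS4m mice, and 4389, 4571, 4875 and 4772 in controls. Both SHS groups were below all control arrays on it, by -0.68 after recovery (adjusted p = 0.0141) and -0.86 at the end of exposure (adjusted p = 0.00209). For recovery mice the brightest probe set gave -0.05 (adjusted p = 0.707), and whether both probe sets differed was not tested. Cyp2j6 had signals of 725 to 924 (median 790) in SHS4m+1m recovery mice, 1033 to 1228 (median 1104) in SHS4m mice and 961 to 1275 (median 1103) in controls. Its recovery arrays were below all others, with differences of -0.46 from controls (adjusted p = 0.0799) and -0.47 from SHS4m mice (adjusted p = 0.0646). A second probe set of Cyp2j6 read 587 to 1162 in SHS4m+1m recovery mice, 997 to 1136 in SHS4m mice and 721 to 1190 in controls, so that its groups overlapped. Its differences of recovery mice were -0.24 from controls (adjusted p = 0.723) and -0.48 from SHS4m mice (adjusted p = 0.402). Cyp2j9 averaged log2 signals of 7.71 in recovery, 8.30 in SHS4m and 7.81 in control mice and was not called, Cyp2j13 was at the floor on 6 of 12 arrays and Cyp2j11 on all 12.

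The probe set that names both Cyp2a5, the coumarin and nicotine oxidase, and Cyp2a4, a steroid 15-alpha-hydroxylase, cannot tell these near-identical genes apart. Its signal was 38855, 38999, 38553 and 32469 in SHS4m+1m recovery mice, 47103, 46116, 41794 and 46405 in SHS4m mice, and 24339, 28446, 14548 and 18259 in controls. The 3 groups did not overlap, with SHS4m arrays highest and controls lowest. Both comparisons with controls share the 4 control arrays, and replicates 3 and 4 were the lowest of them, as for Cyp2g1. Against controls the Cyp2a5/Cyp2a4 signal was 2.19-fold higher in SHS4m mice (log2 1.13, standard error 0.18, adjusted p = 0.00748 from limma) and 1.79-fold higher in recovery mice (log2 0.84, adjusted p = 0.0484). The first call held under every alternative. The second did not survive leaving out any array but that of control replicate 2 (adjusted p up to 0.121) and under 6 other alternatives (up to 0.168). The difference of recovery from SHS4m mice was -0.29 (95% interval -0.69 to 0.12, adjusted p = 0.578). Cyp2a12, a steroid hydroxylase and the Cyp2a gene read alone, had signals of 21294 to 29191 (median 24613) in SHS4m+1m recovery mice, 27036 to 28800 (median 27947) in SHS4m mice and 22727 to 24355 (median 23473) in controls. Its SHS4m arrays were above all control arrays, and the difference of 0.25 was not called (adjusted p = 0.11), though it was without recovery replicate 72 or 73 (0.023 and 0.0382).

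**Figure D3:**
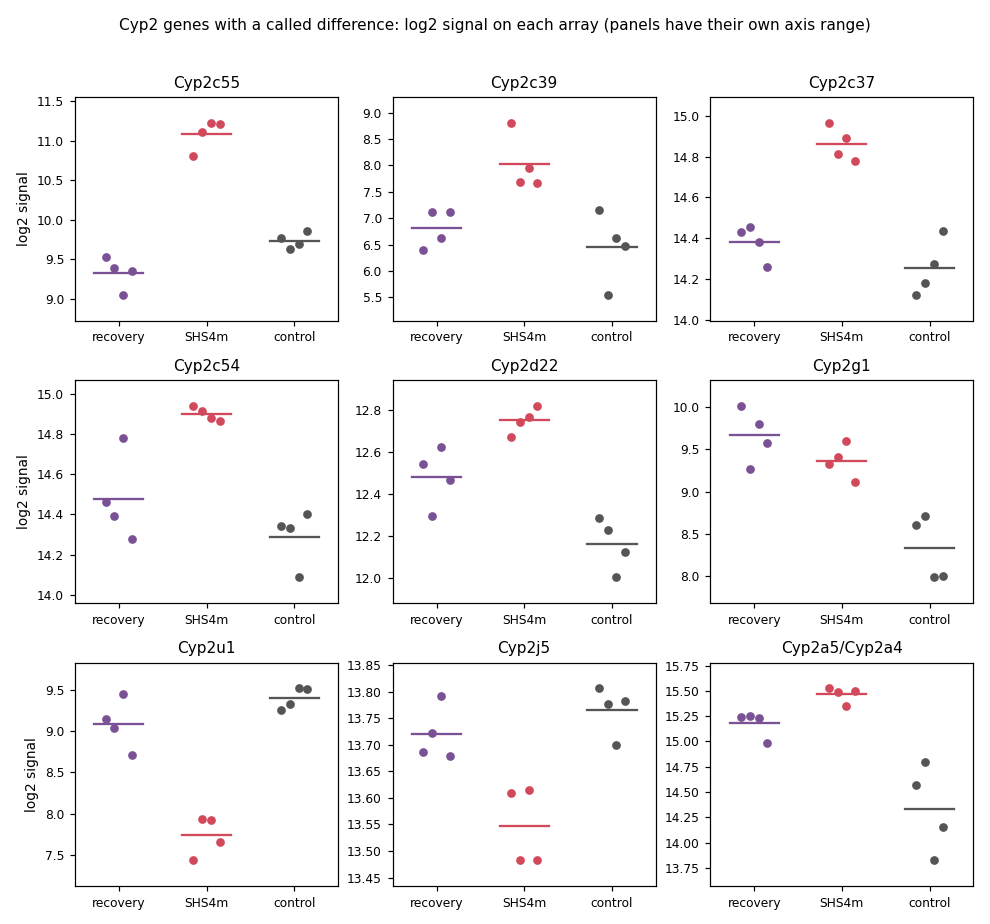
Log2 signal (y axis, each panel with its own range) on each array of the 8 called Cyp2 genes and of the probe set of Cyp2a5 and Cyp2a4, in SHS4m+1m recovery, SHS4m and control mice (x axis, 4 arrays each). Points are arrays and bars are group means. For Cyp2c55, Cyp2c39, Cyp2c37, Cyp2c54 and Cyp2d22 all SHS4m points lie above all others, for Cyp2u1 and Cyp2j5 below, and for Cyp2g1 and Cyp2a5/Cyp2a4 both SHS groups lie above controls.

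Several well-known hepatic members were not called. Cyp2e1, which oxidises ethanol, had signals of 50126, 63602, 78567 and 43209 in SHS4m+1m recovery mice, 52023, 46435, 46108 and 48130 in SHS4m mice, and 67309, 67627, 74171 and 60287 in controls. All SHS4m arrays were below all control arrays, and recovery arrays spanned both, with replicate 72 highest. Its log2 difference at the end of exposure was -0.48 (95% interval -0.84 to -0.12, adjusted p = 0.137 from limma), and Cyp2e1 was called without recovery replicate 72 (adjusted p = 0.0461) and when only the 8 arrays compared were fitted (0.0191). The highest signal of any probe set was 60512 to 92291 on recovery arrays, 62255 to 66109 on SHS4m arrays and 74490 to 84774 on control arrays. Cyp2e1 thus lay near the top of the scale, and this top was itself lower on all SHS4m arrays than on all control arrays. Its part in the Cyp2e1 difference was not tested. Cyp2f2, which activates naphthalene in the mouse, averaged log2 signals of 14.95 in SHS4m+1m recovery mice, 14.91 in SHS4m mice and 15.09 in controls. Cyp2r1, a 25-hydroxylase of vitamin D, averaged 10.35 in SHS4m+1m recovery mice, 10.42 in SHS4m mice and 10.47 in controls. Cyp2s1, mainly an enzyme of epithelia outside the liver, was dim, at 39.5 to 69.3 in SHS4m+1m recovery mice, 51.0 to 112 in SHS4m mice and 75.3 to 105 in controls, and its difference in recovery mice was -0.67 (adjusted p = 0.329). Of the 18 members above the floor that were not called at the end of exposure, the 95% interval lay within a 2-fold change either way for 16 and within 1.41-fold for 13. After recovery this held for 23 and 16 of 25 members against controls, and for 20 and 14 of 23 against SHS4m mice. Uncalled members besides Cyp2e1 were bright too: Cyp2c29, Cyp2c50 and Cyp2d10 averaged log2 signals of 15.60, 15.34 and 15.38 in controls. Whether the top of the scale limited the differences of such members was not tested.

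The genes that work with the Cyp2 enzymes were read from lists by the same test. Of 5 genes listed as electron donors or partners of P450 enzymes, 4 were measured (Cyb5a, Cyb5b, Cyb5r3 and Pgrmc1). None of these was called by limma in any comparison (1, 1 and 0 at an unadjusted p under 0.05, in the order used for the Cyp2c genes). Their median log2 difference was -0.10 in recovery mice and -0.15 in SHS4m mice, both against controls. The gene of this list that no probe set is named for in the annotation table is Por, the P450 reductase itself. A probe set that the study names Por in its lists, chosen on these arrays and looked up here after the other results were known, read 9049, 9098, 7806 and 8298 in SHS4m+1m recovery mice, 14456, 14260, 9915 and 12759 in SHS4m mice, and 3176, 3506, 2464 and 2522 in controls. The groups did not overlap, with SHS4m arrays highest and controls lowest. By limma its log2 difference from controls was 1.57 in recovery mice (2.96-fold, adjusted p = 0.00348) and 2.14 in SHS4m mice (4.41-fold, adjusted p = 0.000253), and recovery mice differed from SHS4m mice by -0.57 (adjusted p = 0.0835). Being selected by the study on these arrays, the Por values are not independent evidence of a change. Of 13 enzymes that act beside or after Cyp2 enzymes, 6 were called higher in SHS4m mice than in controls and 0 lower. The median difference of the 13 was 0.36, and 9 of them had an unadjusted p under 0.05 by limma. Among all genes 3.73% were called higher and 3.74% lower in this comparison. Of the 6, the microsomal epoxide hydrolase Ephx1 had a log2 difference of 0.79 (adjusted p = 0.00129 from limma). The aryl hydrocarbon targets Cyp1a1 and Cyp1a2 had 1.77 and 0.42 (adjusted p = 0.0387 and 0.00392). The flavin monooxygenases Fmo1 and Fmo2 had 0.56 and 1.29, and the aldehyde oxidase Aox1 had 0.36. The rest were not called. Ephx2, Ephx4, Aox3 and Cyp1b1 had differences of -0.30, -0.12, -0.48 and -0.12, and Ephx3, Fmo4 and Fmo5 of 0.34, 0.08 and 0.38. In recovery mice 0 of the 13 were called against controls (1 at an unadjusted p under 0.05), and Ephx1, Cyp1a1, Cyp1a2 and Aox1 were lower than in SHS4m mice (-0.51, -2.25, -0.50 and -0.49). The limma adjusted p of these 4 was 0.00381 to 0.0255. Among all genes 1.68% were called lower and 2.01% higher in recovery than in SHS4m mice. In the Cyp2b genes left out here, Cyp2b10 had log2 differences of 1.49 in recovery and 4.11 in SHS4m mice from controls, and Cyp2b9 of 0.92 and 2.09.

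Of 24 transcription factors and receptors that act on Cyp2 genes, 4 were higher and 0 lower in recovery mice than in controls. Their median difference was 0.34, and 14 had an unadjusted p under 0.05 by limma. In SHS4m mice 5 were higher and 4 lower than in controls (median 0.19). Among all genes 1.37% were called higher and 1.14% lower in recovery mice, and 3.73% higher and 3.74% lower in SHS4m mice. Nr1i2, the receptor PXR, was higher by 0.38 in recovery mice (adjusted p = 0.0349 from limma) and by 0.60 in SHS4m mice (adjusted p = 0.00254), and its partner Rxra by 0.24 and 0.38 (adjusted p = 0.0305 and 0.0018). CAR (Nr1i3) had a difference of 0.35 in SHS4m mice that was not called (adjusted p = 0.352). The Ah receptor, Ahr, and Cebpb were higher in SHS4m mice than in controls (0.81 and 0.91, adjusted p = 0.028 and 0.0387). The hepatocyte factors Foxa1, Foxa3 and Onecut1 and the corepressor Nr0b2 were lower in SHS4m mice (-1.68, -1.08, -2.69 and -1.53), with an adjusted p of 0.0101 to 0.034. Nr1h4, the bile acid receptor, was higher in recovery mice (0.64, adjusted p = 0.0356). Between recovery and SHS4m mice, Cebpa and Foxa3 were higher after recovery (0.80 and 1.81, adjusted p = 0.0114 and 0.00218 from limma). They were 2 of the 24, beside 2.01% of all genes called higher there.
Tef, a clock-driven factor whose motif is the D-box, was higher by 1.23 in recovery mice (adjusted p = 0.0145 from limma) and by 1.05 in SHS4m mice (adjusted p = 0.0126). Binding of Tef to the windows of Cyp2a5 and Cyp2a4 was not measured. The differences of Dbp from controls were 1.66 in recovery mice (adjusted p = 0.166) and 0.43 in SHS4m mice (adjusted p = 0.764), and those of Hlf were 0.29 and 0.24 (adjusted p = 0.411 and 0.434). Of 15 clock genes, 3 were higher and 1 lower than in controls in each SHS group: Tef, Per2 (1.30 in recovery and 1.32 in SHS4m mice) and Ciart were higher and Clock (-1.18 and -1.02) was lower. Their median difference was 0.56 in recovery mice and 0.33 in SHS4m mice. Among all genes 1.37% were called higher and 1.14% lower in recovery mice, and 3.73% higher and 3.74% lower in SHS4m mice. Controls scattered more than recovery mice on most clock genes. The standard deviation of log2 signal was 0.456 for Tef, 1.25 for Dbp and 1.14 for Ciart in controls, against 0.0895, 0.242 and 0.374 in recovery mice. It was smaller in controls for Hlf, Clock and Nr1d1 (0.181, 0.285 and 0.358 against 0.235, 0.291 and 1.93). The hour at which livers were taken was not stated in the sources, and its part in the Cyp2a5/Cyp2a4 and Cyp2g1 results, which move between the same groups, was not tested.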

How the data were processed

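The authors summarised the arrays in Affymetrix Expression Console, and the deposited values are linear intensities scaled so that every array has a mean of 500 once 2% of values are trimmed from each end. How probes were combined into a probe set was not stated in the sources. Per array, 29.9% to 33.5% of values lay below 32. Values were floored at 32, log2 was taken, and all 45037 probe sets outside the array's own controls entered 1 limma (3.58.1, R 4.3.3) model of the 3 groups, two-sided, with Benjamini-Hochberg adjustment over all of them. The fit was tested on simulated data. Probe sets were named from the platform annotation, in which 34945 name 1 gene, 932 name several and 9160 are unnamed here, and all 31 symbols matched RefSeq by gene ID. Windows were aligned with Biopython 1.88. Every called gene is given array by array, every other gene above the floor by its group values or difference, and the rest by name. The members and lists were chosen with earlier results of these data known. The number of arrays, 4 per group, limits the precision. Alternatives changed the floor, pseudocount, scaling, filter, probe set rule, model, threshold and arrays used.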

Additional observations from a re-analysis of the deposited data

Results flagged for a closer look

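In 4 of the 81 sets of 4 arrays examined, 1 array lay farther from the others than Dixon's test allows at its 95% limit, which chance gives in about 1 of 20 sets. Recovery replicate 73 had a signal of 32500 for the probe set of Cyp2a5 and Cyp2a4, against 38600 to 39000 on the other recovery arrays. SHS4m replicate 69 had 267 for Cyp2j9, against 331 to 334 on the other SHS4m arrays, and control replicate 4 had 142 for the same gene, against 252 to 267 on the other controls. Control replicate 2 had 19500 for Cyp2c70, the muricholic acid enzyme, against 28100 to 30100 on the other controls.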

How the results depend on the processing

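No paired analysis was possible because the groups share no replicate numbers. Of the 14 called differences described, 0 changed sign in 306 checks, and 264 checks kept the call. Of the 67 differences that were not called, 17 of 1473 checks made a call, and the sign turned in 32. The count of called Cyp2 genes in SHS4m mice against controls, 8, was 6 to 9 without 1 array, 10 with quantile normalization and 4 at the study's threshold read as an unadjusted p under 0.05 with a 2-fold change. The count for recovery against controls, 1, was 1 to 2 without 1 array (2 without recovery replicate 71), 2 with the mean of a gene's probe sets and 0 when only the 8 arrays compared were fitted. The count for recovery against SHS4m mice, 3, was 3 to 4 without 1 array, 5 with quantile normalization and 2 with log2(value + 16) in place of the floor. Without recovery replicate 72 the 3 counts were 9, 1 and 4. The cause of these changes was not tested. Centring each array on its median moved the median of all probe sets by 0.08 in both comparisons with controls and left 7, 1 and 3 genes called. Signals at the floor limit what could be seen for 5 of the 31 genes.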

Other observations

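Markers of the liver zones and of other cells were read by the same limma test. It called 2.52% of all genes in recovery mice and 7.47% in SHS4m mice, both against controls. Of 11 pericentral genes other than Cyp2, in the zone where most P450 enzymes lie, 0 were called in recovery mice against controls (3 at an unadjusted p under 0.05), and 1 was higher (Cyp1a2) and 1 lower (Lgr5, log2 -1.03, adjusted p = 0.0257) in SHS4m mice. Of 10 periportal genes 0 were called in recovery mice against controls (5 at an unadjusted p under 0.05), and Pck1 of gluconeogenesis was higher in SHS4m mice (log2 1.20, adjusted p = 0.0126). Of 7 Kupffer cell and macrophage markers, 0 were called in recovery mice against controls (1 at an unadjusted p under 0.05), and in SHS4m mice Marco was higher (1.90, adjusted p = 0.0137) and Clec4f lower (-0.51, adjusted p = 0.0173). The other 5 (Adgre1, Cd5l, Vsig4, Csf1r and Cd68) had differences of -0.60 to -0.25 in SHS4m mice and were not called. The median of the 7 was -0.16 in recovery mice and -0.35 in SHS4m mice, and 6 of the 7 had an unadjusted p under 0.05 in SHS4m mice. Their summed signal was 13422 to 18126 in recovery mice, 12634 to 15726 in SHS4m mice and 15662 to 18991 in controls, and their part in the Cyp2 results was not tested. The 6 endothelial, 6 stellate, 4 cholangiocyte, 5 lymphocyte and 2 neutrophil markers held 0 calls in any comparison, with 2 of 18, 4 of 18, 1 of 12, 3 of 15 and 0 of 6 gene comparisons at an unadjusted p under 0.05.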
